A study of Mus musculus with 12 samples.

Results

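The expression of 9 transcription regulators that mark the layers of the cerebral cortex was examined in single cells of newborn mice with and without mutations in Myt1l. The genes were Tbr1, Fezf2, Bcl11b, Ldb2, Tle4, Cux1, Cux2, Rorb and Mef2c, taken from a list of layer identity genes by name and not by any value, and they are 9 of the 18879 genes in the data. Mice of 3 genotypes, labelled as strain C57BL/6J although the methods describe a line made and bred on C57BL/6N, were compared at postnatal day 0: heterozygous mice with 1 mutant and 1 intact allele (HET), homozygous mutants (HOM) and wild-type controls (WT). The mutant allele is a germline deletion of 7 bp in exon 6 of Myt1l that puts a stop codon at residue 78, so it is present in every cell and not driven by a Cre line or a transgene. Prefrontal cortex of 2 animals per genotype was pooled after fixation into 1 droplet library read from the 5′ end of the transcripts, and the 12 deposited samples are 4 sequencing runs of each of these 3 libraries. Cells were tagged with barcode oligonucleotides before pooling, but which animal a cell came from was not known here, so the values below compare 3 libraries and carry no p-value. Genotype names follow the deposited cell table; a legend of the study assigns the cell numbers to the genotypes in another order, and the direction of every ratio below rests on the table.

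The cortex is built from the inside out: neurons of the deep layers are born first, and those of the upper layers migrate past them later. TBR1 specifies corticothalamic neurons of layer VI, FEZF2 and its downstream partner BCL11B (CTIP2) specify subcerebral projection neurons of layer V, and CUX1 and CUX2 mark and shape the dendrites of upper layer neurons, while RORB is the nuclear receptor of layer IV. Several of these proteins repress one another, and most have further roles in interneurons, striatal neurons or glia. MYT1L, the mutated protein, is a zinc finger factor of postmitotic neurons that binds the core motif AAAGTT and is known mostly as a repressor.

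The data comprised 36263 cells of 21 annotated cell types, with 12072 cells in HET, 13688 in HOM and 10503 in WT. Median depth was 1099 molecules per cell in HET, 1330 in HOM and 1045 in WT. The 4 types annotated as layers II to VI held 14125 cells, of which 5123 were from HET, 4706 from HOM and 4296 from WT. The libraries also differed in composition. The type LayerI [19-P] held 114 cells in HET, 237 in HOM and 71 in WT, and SVZ2 (migrating) [8-P] held 19 in HET, 3 in HOM and 44 in WT. Xist was found in 2 cells of HET, 1 of HOM and 2121 of WT, Y-linked genes were found in all 3 libraries, and 645 cell barcodes of 35612 were shared by 2 libraries and 3 by all. Cells with an Xist transcript were 20.2% of WT, 0.0166% of HET and 0.00731% of HOM cells. Sex was thus not balanced between the libraries and cannot be told apart from genotype in ratios to WT. Some ratios are given below without cells that had an Xist transcript or in cells with a Y-linked transcript. Leaving out Xist cells changed almost only WT, and the WT cells left may still include female cells. Y-linked transcripts were found in 15.4% of HET, 15.2% of HOM and 5.74% of WT cells. Over the 4 layer types that subset held 97 to 245 cells per type in HET, 65 to 296 in HOM and only 9 to 76 in WT. The part of the other differences in the results was not tested. Myt1l itself does not check the labels, because the deletion leaves the transcript in place. Its level, given here as depth-corrected counts per 1000000 of all genes in the same library and cell type (CPM), was 889 CPM in HET, 1406 CPM in HOM and 737 CPM in WT cells of LayerII-IV [1-P], and it was higher in HET and HOM than in WT in all 4 layer types.

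The annotated names were compared with marker lists before the layer factors were read. A summed list of upper layer genes reached 1668 CPM in HET, 1808 CPM in HOM and 1711 CPM in WT in LayerII-IV [1-P], and a list of deep layer genes reached 1703 CPM in HET, 1957 CPM in HOM and 1777 CPM in WT in LayerV-VI [18-P]. Neither sum was particular to these types. The upper list reached 1404 CPM in HET, 1696 CPM in HOM and 1356 CPM in WT in SVZ1 (migrating) [2-P]. The deep list reached 1765 CPM in HET, 1709 CPM in HOM and 1888 CPM in WT in Striatal inh2 [7-P]. These 2 types carried the markers of their names, although the lists hold some of the 9 genes and the annotation was made from all genes. LayerII-IV [4-P] was not separated by the lists: its upper layer sum was 692 CPM in HET, 780 CPM in HOM and 793 CPM in WT, and its deep layer sum was 684 CPM in HET, 661 CPM in HOM and 763 CPM in WT. LayerV-VI [12-P] carried the deep layer genes Tbr1, at 484 to 790 CPM over the libraries, and Bcl11b, at 356 to 472 CPM. Fezf2 was at 13.7 to 21.5 CPM there, Tle4 at 28.9 to 111 CPM and Ldb2 at 36.9 to 60.5 CPM. Its upper layer sum was 524 CPM in HET, 469 CPM in HOM and 634 CPM in WT, above the 301 to 372 CPM of LayerV-VI [18-P]. The type also carried genes of migrating progenitors of the subventricular zone. Their sum was 554 CPM in HET, 548 CPM in HOM and 520 CPM in WT, against 67.3 to 93.0 CPM in LayerV-VI [18-P]. Such progenitors form the type SVZ1 (migrating) [2-P], where the same sum was 1470 CPM in HET, 1342 CPM in HOM and 1458 CPM in WT. Within that sum Eomes, the factor of intermediate progenitors, was at 121 CPM in HET, 57.1 CPM in HOM and 265 CPM in WT, while Sema3c was at 704 CPM in HET, 720 CPM in HOM and 576 CPM in WT. All 4 layer types are therefore named here with their number in the annotation.

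Markers of other cells were also present in the layer types, and their part in the results was not tested. A list of 8 inhibitory neuron genes summed to at most 144 CPM in any layer type and library, against 2564 CPM in HET, 2866 CPM in HOM and 2606 CPM in WT in the interneuron type Int1 [5-P]. A list of 9 genes of striatal projection neurons summed to 538 to 1873 CPM over the layer types in HET, 505 to 1324 CPM in HOM and 554 to 1830 CPM in WT. In LayerV-VI [12-P] this sum, of 1873 CPM in HET, 1264 CPM in HOM and 1830 CPM in WT, was above that of the deep layer genes, which was 1234 CPM in HET, 1151 CPM in HOM and 1572 CPM in WT. Most of it was Meis2, with 1530 CPM in HET, 1110 CPM in HOM and 1565 CPM in WT, a gene that was as high in SVZ1 (migrating) [2-P]. The striatal factor Isl1 in LayerV-VI [12-P] was at 108 CPM in HET, 36.4 CPM in HOM and 27.7 CPM in WT, against 165 CPM in HET, 211 CPM in HOM and 213 CPM in WT in Striatal inh1 [3-P]. A list of 7 astrocyte and radial glia genes summed to 852 to 1800 CPM over the layer types in HET, 916 to 1899 CPM in HOM and 726 to 1342 CPM in WT, and was higher in HET and in HOM than in WT in each of the 4 types. Haemoglobin transcripts of red blood cells summed to 359 to 839 CPM in HET, 585 to 1649 CPM in HOM and 578 to 1140 CPM in WT. Transcripts of the meninges gene Ptgds were found mainly in the HOM library, with 462 CPM in HOM against 2.51 CPM in HET and 1.37 CPM in WT in LayerII-IV [1-P].

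The 5′ windows of the 9 genes were searched for the MYT1L core motif to show where it lies relative to their start sites. RefSeq promoters of build GRCm38.p6, 250 bases before to 50 after each start, were at hand for 8 of the 9 genes (13 windows of 300 bases). The letters AAAGTT or their reverse complement AACTTT, searched on both strands, were found in 3 of the 13 windows, belonging to Fezf2 and Mef2c, and in 14.1% of all 32851 promoters. In capitals are the matches in the Fezf2 window (chr14:12345816-12346115, minus strand) and in 2 of the 3 Mef2c windows (chr13:83503784-83504083 and chr13:83523406-83523705, both plus strand).
Fezf2: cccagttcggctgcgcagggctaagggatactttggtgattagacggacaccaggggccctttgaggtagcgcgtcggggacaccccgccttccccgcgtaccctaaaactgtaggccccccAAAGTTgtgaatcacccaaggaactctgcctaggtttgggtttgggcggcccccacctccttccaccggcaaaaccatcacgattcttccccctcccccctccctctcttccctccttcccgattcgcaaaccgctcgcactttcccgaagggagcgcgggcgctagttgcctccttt
Mef2c, first window: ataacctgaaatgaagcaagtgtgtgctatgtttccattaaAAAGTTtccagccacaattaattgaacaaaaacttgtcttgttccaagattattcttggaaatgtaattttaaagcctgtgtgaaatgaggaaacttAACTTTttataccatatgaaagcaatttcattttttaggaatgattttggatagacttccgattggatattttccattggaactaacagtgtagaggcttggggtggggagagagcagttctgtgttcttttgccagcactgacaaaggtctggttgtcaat
Mef2c, second window: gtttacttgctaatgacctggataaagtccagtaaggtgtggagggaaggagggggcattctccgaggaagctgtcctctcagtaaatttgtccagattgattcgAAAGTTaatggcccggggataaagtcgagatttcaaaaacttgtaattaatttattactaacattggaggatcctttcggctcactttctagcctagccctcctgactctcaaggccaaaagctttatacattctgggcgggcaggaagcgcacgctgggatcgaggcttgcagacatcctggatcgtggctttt
The match in Fezf2 begins 128 bases before the start site, the first in Mef2c 209 bases before it and that of the second Mef2c window 145 bases before it. The Fezf2 window was rich in G and C (61.3%), whereas the first Mef2c window was poor in them (35.7%). A match describes the letters of a window and was not read as a binding site.

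Tbr1 (chr2:61802930-61814114, plus strand, mm10 with GENCODE M21) was highest in LayerV-VI [12-P]. Its level there was 585 CPM in HET, 484 CPM in HOM and 790 CPM in WT. SVZ1 (migrating) [2-P] came next with 445 CPM in HET, 400 CPM in HOM and 494 CPM in WT, which overlapped the range of LayerV-VI [12-P] over the libraries. LayerV-VI [18-P] had 221 CPM in HET, 245 CPM in HOM and 258 CPM in WT, and LayerII-IV [1-P] had 213 CPM in HET, 188 CPM in HOM and 285 CPM in WT. These neighbours in the order were not apart beyond the spread of the libraries either, while LayerII-IV [4-P] lay below both with 63.4 CPM in HET, 74.0 CPM in HOM and 107 CPM in WT. WT had the highest of the 3 values of this T-box factor in all 5 of these types.

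Fezf2 (chr14:12342094-12348189, minus strand), the zinc finger factor at the top of the subcerebral programme, had its highest level in LayerV-VI [18-P]. It stood at 152 CPM in HET, 198 CPM in HOM and 138 CPM in WT in this type. All other types lay below every one of these values. The next was a glial type, Astrocytes (immature) 1 [10-P], with 88.0 CPM in HET, 57.6 CPM in HOM and 56.8 CPM in WT; FEZF2 is also known from cortical progenitors. LayerII-IV [4-P] had 47.2 CPM in HET, 54.2 CPM in HOM and 41.6 CPM in WT. In LayerV-VI [12-P] the summed value was only 9 in HET, 9 in HOM and 7 in WT, too low to be compared.

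Bcl11b (chr12:107910403-108003602, minus strand), which encodes the zinc finger factor CTIP2 of corticospinal axon growth, was not highest in a cortical layer type. Striatal inh1 [3-P] had 750 CPM in HET, 723 CPM in HOM and 778 CPM in WT, and Striatal inh2 [7-P] had 550 CPM in HET, 587 CPM in HOM and 541 CPM in WT; CTIP2 is a known factor of striatal projection neurons. Among the layer types LayerV-VI [12-P] came first with 356 CPM in HET, 472 CPM in HOM and 461 CPM in WT. LayerV-VI [18-P] followed with 256 CPM in HET, 274 CPM in HOM and 306 CPM in WT, below every library of the type before it. The gene was present at 107 CPM in HET, 96.5 CPM in HOM and 162 CPM in WT in LayerII-IV [4-P] and at 56.6 to 59.7 CPM in LayerII-IV [1-P].

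Tle4 (chr19:14448150-14598051, minus strand) encodes a Groucho family corepressor that marks layer VI. LayerV-VI [18-P] held most of it, with 376 CPM in HET, 333 CPM in HOM and 418 CPM in WT. In every other layer type it was much lower, and LayerV-VI [12-P] had 71.5 CPM in HET, 28.9 CPM in HOM and 111 CPM in WT from summed values of 39 in HET, 19 in HOM and 36 in WT. The next types in the order were striatal, led by Striatal inh1 [3-P] with 194 CPM in HET, 139 CPM in HOM and 270 CPM in WT.

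Ldb2 (chr5:44472132-44799680, minus strand), which encodes a LIM domain binding cofactor that links LIM factors into complexes, was highest in LayerII-IV [4-P] at 277 CPM in HET, 254 CPM in HOM and 248 CPM in WT. It stood at 223 CPM in HET, 222 CPM in HOM and 173 CPM in WT in LayerV-VI [18-P]. These 2 ranges did not overlap. LayerII-IV [1-P] had 132 CPM in HET, 141 CPM in HOM and 96.4 CPM in WT, close to the 120 to 129 CPM of Striatal inh1 [3-P].

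**Figure D1:**
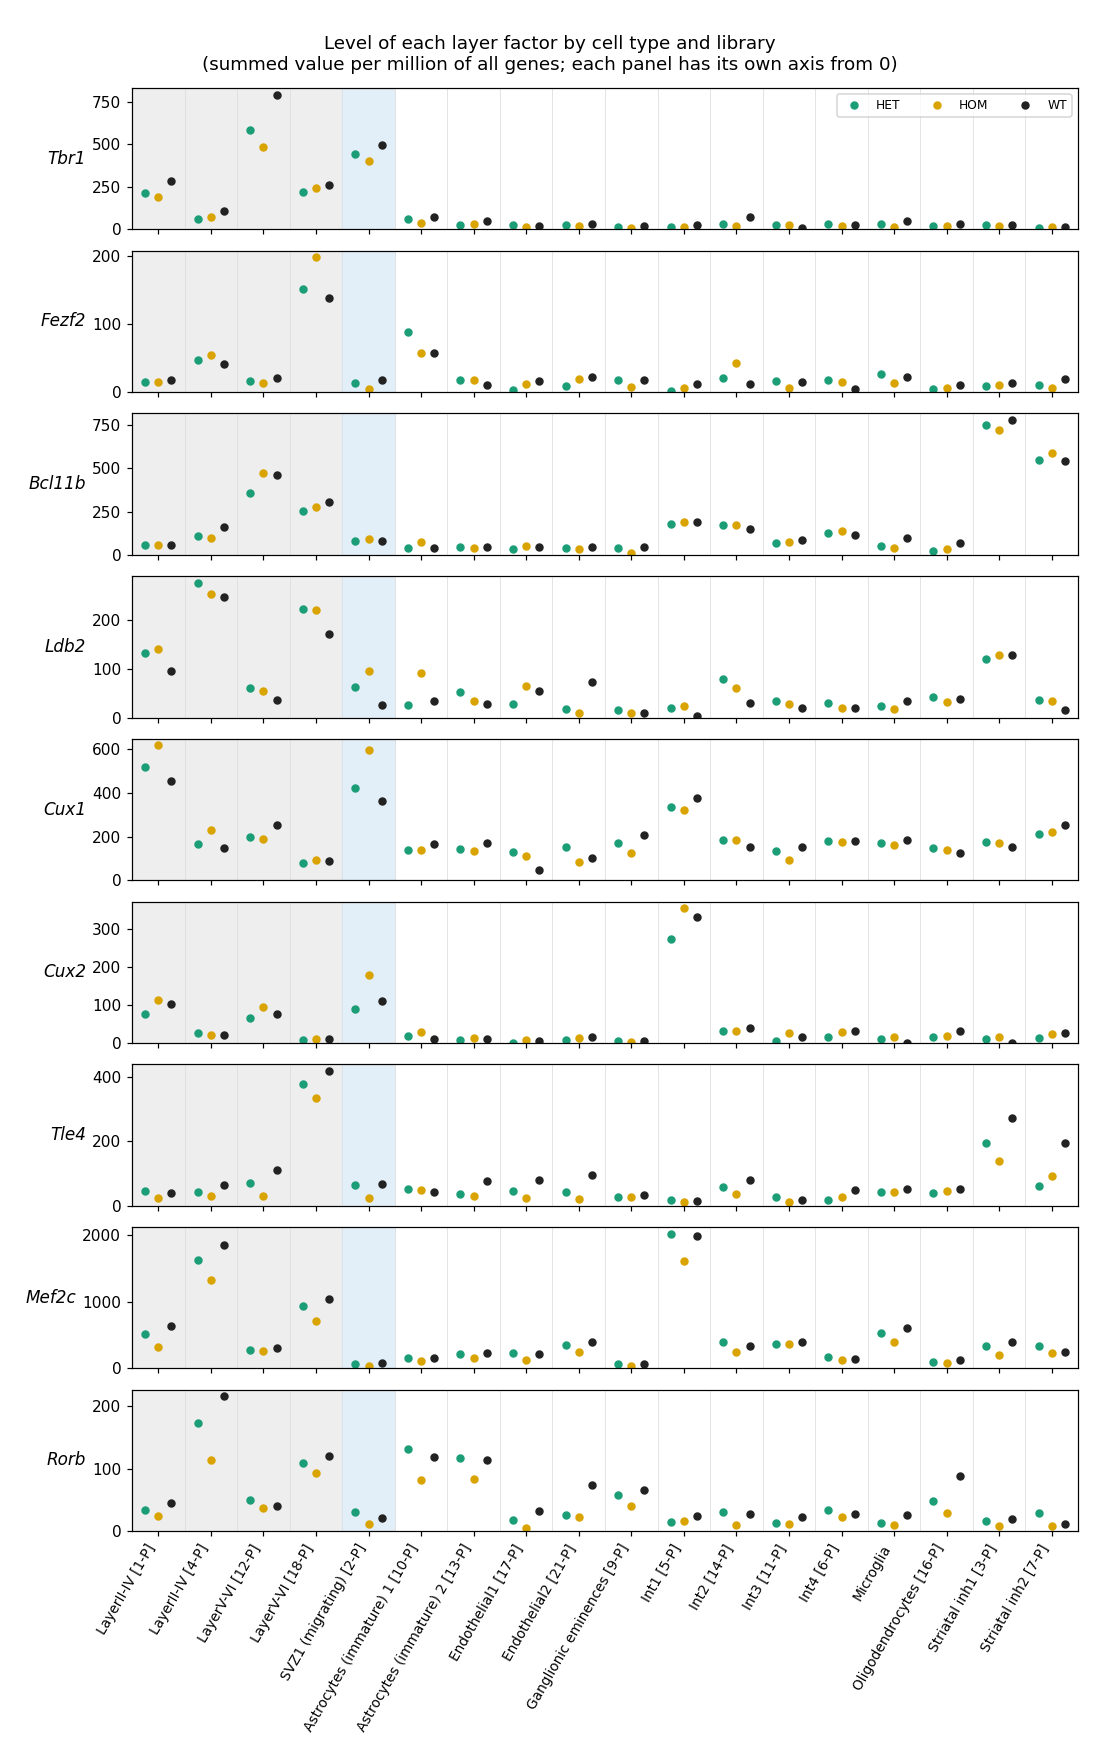
Levels of the 9 layer factors by cell type as depth-corrected counts per 1000000 of all genes, with 1 point per library (HET, HOM, WT), the layer types first and a linear axis from 0 of its own for each gene. Fezf2 and Tle4 peak in LayerV-VI [18-P], Cux1 in LayerII-IV [1-P] and Rorb and Ldb2 in LayerII-IV [4-P], whereas Bcl11b peaks in Striatal inh1 [3-P] and Cux2 and Mef2c in Int1 [5-P].

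Cux1 (chr5:136248135-136567490, minus strand) and Cux2 (chr5:121856366-122050102, minus strand) encode the paired cut-homeodomain factors of layers II to IV. Cux1 was highest in LayerII-IV [1-P], with 517 CPM in HET, 619 CPM in HOM and 453 CPM in WT. SVZ1 (migrating) [2-P] followed with 422 CPM in HET, 597 CPM in HOM and 364 CPM in WT, and the ranges of both types overlapped. Int1 [5-P] came next in the order with 338 CPM in HET, 324 CPM in HOM and 379 CPM in WT, which overlapped the range of SVZ1 (migrating) [2-P] but not that of LayerII-IV [1-P]. Cux1 was lowest of the layer types in LayerV-VI [18-P], with 78.9 CPM in HET, 91.1 CPM in HOM and 87.0 CPM in WT. Cux2 was highest in Int1 [5-P], with 275 CPM in HET, 356 CPM in HOM and 334 CPM in WT, above every library of all other types. SVZ1 (migrating) [2-P] had 90.3 CPM in HET, 179 CPM in HOM and 111 CPM in WT, LayerII-IV [1-P] had 75.8 CPM in HET, 113 CPM in HOM and 103 CPM in WT, and the ranges of both overlapped. In LayerV-VI [18-P] Cux2 was near the lower end, with 7.12 CPM in HET, 9.53 CPM in HOM and 11.4 CPM in WT.

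Rorb (chr19:18930605-19111196, minus strand), the retinoid-related nuclear receptor of layer IV, was highest in LayerII-IV [4-P] at 173 CPM in HET, 114 CPM in HOM and 215 CPM in WT. LayerV-VI [18-P] had 109 CPM in HET, 92.3 CPM in HOM and 120 CPM in WT, and both astrocyte types were as high, Astrocytes (immature) 1 [10-P] with 130 CPM in HET, 81.5 CPM in HOM and 118 CPM in WT. None of these types was apart from its neighbour over the 3 libraries. LayerII-IV [1-P] had only 33.6 CPM in HET, 24.6 CPM in HOM and 45.7 CPM in WT.

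Mef2c (chr13:83504034-83667080, plus strand), which encodes a MADS box factor of neuronal maturation and synapse number, was high in Int1 [5-P] and in LayerII-IV [4-P]. Int1 [5-P] had 2018 CPM in HET, 1614 CPM in HOM and 1980 CPM in WT, and LayerII-IV [4-P] had 1628 CPM in HET, 1329 CPM in HOM and 1846 CPM in WT, so the 2 ranges overlapped. LayerV-VI [18-P] came next with 939 CPM in HET, 704 CPM in HOM and 1042 CPM in WT. Microglia, in which MEF2C is a known regulator, had 527 CPM in HET, 397 CPM in HOM and 600 CPM in WT, near the 512 CPM in HET, 316 CPM in HOM and 634 CPM in WT of LayerII-IV [1-P]. In SVZ1 (migrating) [2-P] Mef2c was low, with 65.3 CPM in HET, 37.4 CPM in HOM and 78.1 CPM in WT.

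The highest type was the same in all 3 libraries for 9 of the 9 genes. Levels are not compared between genes, whose transcripts differ in length. The share of each gene's summed value that fell in the 4 layer types was highest for Ldb2, at 74.7% in HET, 66.6% in HOM and 76.9% in WT, and for Fezf2, at 73.6% in HET, 73.6% in HOM and 69.6% in WT. It was lowest for Cux2 in each library, with 42.0% in HET, 34.9% in HOM and 42.5% in WT, and Bcl11b had 42.9% in HET, 38.0% in HOM and 47.6% in WT. These shares also move with the number of cells of each type in a library.

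Shares of cells with a value above 0 were read in cells with at least 2000 molecules before correction. All intervals are exact Clopper-Pearson 95% intervals that cover counting error only. The depth correction thinned the deepest of these cells. At 3000 to 6000 molecules the median of genes above 0 was 779, against 2299 in the cell table, while at 1500 to 3000 molecules it was 1260 against 1296. The shares therefore mix cells that were thinned to unlike extents, and depth differed between the libraries. Tbr1 was found in 66.1% of HET (59.96 to 71.9%), 55.6% of HOM (50.3 to 60.8%) and 73.9% of WT cells (65.1 to 81.6%) of LayerV-VI [12-P]. In Int1 [5-P], which should lack it, it was found in 0.7% of HET, 1.2% of HOM and 3.1% of WT cells. Median depth over all cells of these types was 2812 molecules in HET, 3475.5 in HOM and 1685 in WT for LayerV-VI [12-P], and 2613.5 in HET, 3027 in HOM and 1915 in WT for Int1 [5-P]. Tle4 was found in 58.0% of HET, 58.2% of HOM and 56.2% of WT cells of LayerV-VI [18-P], against 1.3% of HET, 0.8% of HOM and 2.1% of WT cells in Int1 [5-P]. Fezf2 was found in 30.6% of HET, 35.8% of HOM and 29.4% of WT cells of LayerV-VI [18-P]. In LayerV-VI [12-P] its shares were 1.2% in HET, 1.1% in HOM and 1.7% in WT. Those of Int1 [5-P], the type with its lowest mean level, were 0.0% in HET, 0.4% in HOM and 1.6% in WT. Over all cells the level was 13.7 to 21.5 CPM in LayerV-VI [12-P] and 1.48 to 12.4 CPM in Int1 [5-P]. Such low shares rest on few cells and do not show that Fezf2 in LayerV-VI [12-P] equalled background.

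**Figure D2:**
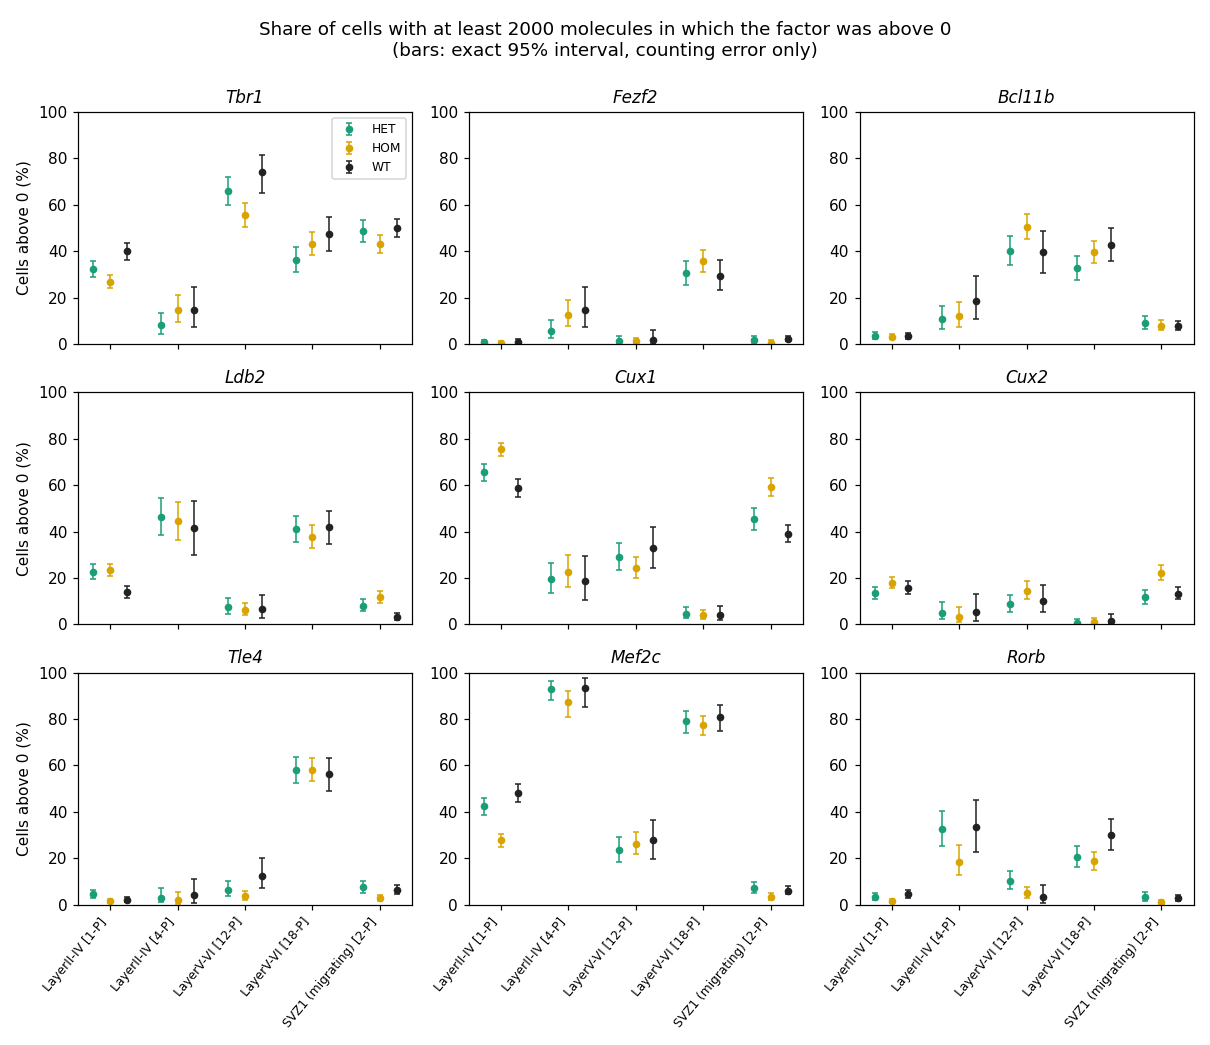
Share of cells with a value above 0 for each of the 9 genes in the 4 layer types and SVZ1 (migrating) [2-P], in cells with at least 2000 molecules, with 1 point per library (HET, HOM, WT) and bars for exact 95% intervals that cover counting error only. Tle4 lies at 56.2 to 58.2% in LayerV-VI [18-P] in all 3 libraries, whereas Mef2c in LayerII-IV [1-P] lies at 27.8% in HOM against 48.1% in WT.

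Mef2c was found in 42.4% of HET (38.8 to 46.1%), 27.8% of HOM (25.1 to 30.7%) and 48.1% of WT cells (44.3 to 51.9%) of LayerII-IV [1-P], with the lowest share in HOM. In LayerII-IV [4-P] nearly every cell had it, with 93.1% in HET, 87.4% in HOM and 93.3% in WT. In Ganglionic eminences [9-P], used as background, it was found in 5.5% of HET, 1.2% of HOM and 3.2% of WT cells. Cux1 was found in 65.5% of HET (62.0 to 69.0%), 75.4% of HOM (72.7 to 78.0%) and 58.7% of WT cells (54.9 to 62.4%) of LayerII-IV [1-P], with the highest share in HOM. The share was 4.6% in HET, 4.0% in HOM and 4.1% in WT for LayerV-VI [18-P], and no type that lacks Cux1 was at hand as background. Rorb was found in 32.5% of HET, 18.5% of HOM and 33.3% of WT cells of LayerII-IV [4-P], against 0.7% of HET, 1.8% of HOM and 0.5% of WT cells in Int1 [5-P]. Bcl11b was found in 40.2% of HET, 50.6% of HOM and 39.5% of WT cells of LayerV-VI [12-P], while in LayerII-IV [1-P] its shares of 3.5% in HET, 3.2% in HOM and 3.3% in WT were close to those of Astrocytes (immature) 2 [13-P], at 3.1% in HET, 2.1% in HOM and 2.6% in WT. Ldb2 was found in 22.7% of HET (19.7 to 25.9%), 23.5% of HOM (20.9 to 26.2%) and 13.8% of WT cells (11.3 to 16.6%) of LayerII-IV [1-P], with the lowest share in WT, against 1.7% of HET, 2.4% of HOM and 0.5% of WT cells in Int1 [5-P]. The intervals of the libraries are not read against each other, because cells of 1 library are not replicates of a genotype.

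Cells that carried transcripts of a pair of layer factors were counted next, in the same deeper cells, since these factors are known to overlap in young neurons. Tbr1 and Tle4, both of layer VI, were found together in 25.6% of HET (21.0 to 30.7%), 30.3% of HOM (25.9 to 35.1%) and 36.1% of WT cells (29.3 to 43.3%) of LayerV-VI [18-P]. The product of the single shares was 21.1% in HET, 25.2% in HOM and 26.6% in WT, so the pair was found together more often than this product in each library. Fezf2 and Bcl11b were found together in 12.04% of HET (8.70 to 16.1%), 17.7% of HOM (14.1 to 21.7%) and 15.5% of WT cells (10.7 to 21.3%) of this type, where the product was 10.0% in HET, 14.2% in HOM and 12.6% in WT. Tbr1 and Bcl11b had a lower observed share than product in each library, with 10.2% in HET, 15.9% in HOM and 19.1% in WT against products of 11.9% in HET, 17.1% in HOM and 20.3% in WT. For Fezf2 and Bcl11b and for Tbr1 and Bcl11b the product lay inside the counting interval in each library. For Tbr1 and Tle4 it lay below the interval in HOM and WT and just inside it in HET. Cux1 and Cux2 were found together in 9.86% of HET, 13.8% of HOM and 10.8% of WT cells of LayerII-IV [1-P].

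**Figure D3:**
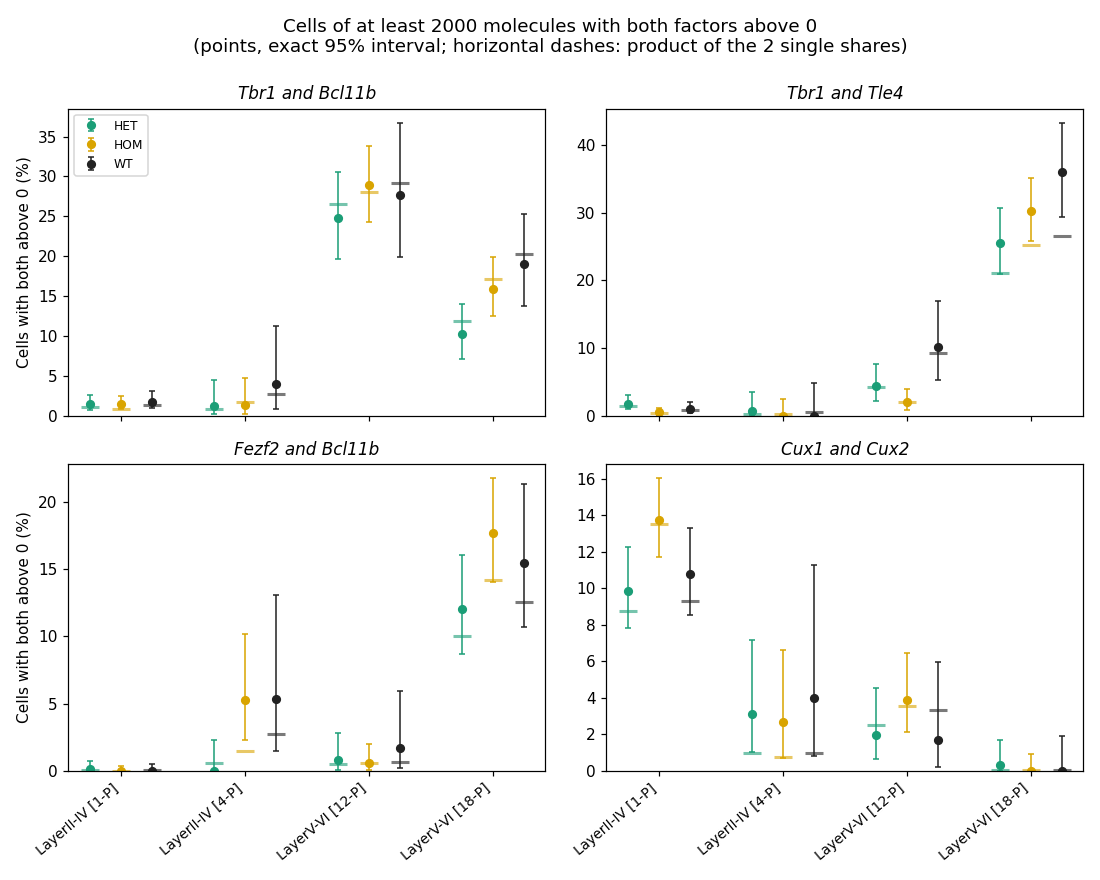
Share of cells in which both genes of a pair had a value above 0, for 4 pairs in cells with at least 2000 molecules of the 4 layer types, with 1 point per library (HET, HOM, WT), bars for exact 95% intervals that cover counting error only, and horizontal dashes for the product of the single shares. Tbr1 and Tle4 in LayerV-VI [18-P] lie above the product in all 3 libraries, at 25.6% in HET, 30.3% in HOM and 36.1% in WT.

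Cux2 and Bcl11b, an upper and a deep layer factor, were found together in 5.12% of HET, 7.78% of HOM and 5.04% of WT cells of LayerV-VI [12-P], and Cux2 and Rorb, both of the upper layers, in 1.08% of HET, 0.77% of HOM and 0.84% of WT cells over the 4 layer types. At least 3 of the 9 genes were found in 67.6% of HET, 68.9% of HOM and 73.7% of WT cells of LayerV-VI [18-P]. That share was 25.8% in HET, 23.8% in HOM and 27.3% in WT for LayerII-IV [1-P] and 15.3% in HET, 16.4% in HOM and 11.9% in WT for SVZ1 (migrating) [2-P], and no cell had more than 7.

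The genotypes were compared by log2 ratios of the levels in each layer type, for genes whose summed value over both libraries reached 50, and by the mean of these ratios over the layer types in which a gene was measured. A gene was counted as higher or lower where this mean passed 0.5, a factor of 1.41. HET and HOM were both set against the same WT library, so their ratios are not independent and are given side by side without a measure of likeness. Fewer transcripts per cell and fewer transcript-bearing cells within an annotated type cannot be told apart in summed values.

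Each comparison was also computed in 13 other ways, some of which are given beside the values. In HET against WT, 0 of the 9 genes were lower and 0 were higher by this rule, beside 12.3% of all 8433 measured genes lower and 2.99% higher. Tbr1 had the largest mean difference, -0.46 on the log2 scale, with -0.42 in LayerII-IV [1-P], -0.75 in LayerII-IV [4-P], -0.43 in LayerV-VI [12-P] and -0.22 in LayerV-VI [18-P]. Mef2c was also lower in HET in all 4 layer types, with a mean of -0.20, which turned to 0.05 with the trend over transcript length removed and to 0.01 without cells that had an Xist transcript. These were 2 of the 5 layer factors measured in all 4 types, beside 23.8% of all genes measured in all 4. Ldb2 was higher in HET in each of the 3 types in which it was measured, with a mean of 0.33. In the subset with a Y-linked transcript, which held few WT cells, it stood at -0.40 over 2 types. In single types 3 of the 9 genes were lower by at least 0.5 in LayerII-IV [4-P], Tbr1, Bcl11b (-0.60) and Tle4 (-0.54), beside 12.9% of all genes, and 1 of 6 in LayerV-VI [12-P], Tle4 (-0.63), beside 11.1%. None of 9 was lower by that much in LayerII-IV [1-P], beside 14.7%, and none of 8 in LayerV-VI [18-P], beside 15.5%. The other means were 0.05 for Fezf2, -0.03 for Cux1, -0.08 for Cux2, -0.29 for Bcl11b, -0.29 for Tle4 and -0.30 for Rorb. That of Cux2 joined unlike types, with -0.45 in LayerII-IV [1-P] and 0.42 in LayerII-IV [4-P]. Cux2 stood at -0.52 with layer types summed, at -0.45 where a sum of 200 was required (1 type) and at -1.18 under 1000 molecules (1 type). With the length trend removed it stood at 0.17. The mean was below 0 for 7 of the 9 genes, beside 60.5% of all genes. The median of the 9 genes was -0.20, against -0.09 over all genes.

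In HOM against WT, 3 of the 9 genes were lower, Tle4, Mef2c and Rorb, beside 18.0% of all 8569 genes measured, and 0 were higher, beside 6.17% of all genes. The mean was below 0 for 5 of the 9, beside 60.5% of all genes, and the median of the 9 genes was -0.22, against -0.11 over all genes. Tle4 had a mean of -1.03, from -0.80 in LayerII-IV [1-P], -1.05 in LayerII-IV [4-P], -1.94 in LayerV-VI [12-P] and -0.33 in LayerV-VI [18-P]. This mean weighs the types equally, and it came mainly from types in which Tle4 was scarce. In LayerV-VI [18-P], where the gene was highest, the level was 333 CPM in HOM and 418 CPM in WT, with the nearly equal shares of Tle4 cells given above. Tle4 was no longer past 0.5 among cells whose annotation had a probability of at least 0.9, where 2 types were measured and the mean was -0.36, nor in cells with at least 2000 molecules, where only 1 type was measured at -0.28, nor where the layer types were summed (-0.48) or a summed value of 200 was required (-0.33, 1 type).

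Mef2c was lower in HOM in all 4 layer types, with a mean of -0.56, from -1.004 in LayerII-IV [1-P], -0.47 in LayerII-IV [4-P], -0.20 in LayerV-VI [12-P] and -0.57 in LayerV-VI [18-P]. Rorb had a mean of -0.73 over 3 types, from -0.89 in LayerII-IV [1-P], -0.92 in LayerII-IV [4-P] and -0.38 in LayerV-VI [18-P]. Of the 9 genes, 7 have a longest transcript above the median of all genes, and log2 ratios moved with transcript length. With the median ratio of genes of like length removed, Mef2c stood at -0.30 and Rorb at -0.37, while Tle4 stood at -0.85. Mef2c was also under 0.5 with annotation probabilities of at least 0.9 (-0.47), with median-of-ratios scaling (-0.48) and without cells that had an Xist transcript (-0.36).

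Tbr1 was lower in HOM in all 4 types as well, with -0.60 in LayerII-IV [1-P], -0.53 in LayerII-IV [4-P], -0.71 in LayerV-VI [12-P] and -0.07 in LayerV-VI [18-P], and its mean of -0.48 did not pass 0.5. It passed 0.5 with an equal mix of depths (-0.63), in cells with at least 2000 molecules (-0.60) and with the total taken without technical genes (-0.53). Tbr1, Tle4 and Mef2c were thus 3 of the 5 layer factors measured in all 4 types, beside 25.6% of all genes measured in all 4. In LayerII-IV [1-P] 4 of 9 layer factors were lower by at least 0.5, beside 20.3% of all genes, and in LayerII-IV [4-P] 4 of 8, beside 18.0%. The count was 2 of 6 in LayerV-VI [12-P], Tbr1 and Tle4, beside 12.7%, and 1 of 8 in LayerV-VI [18-P], Mef2c, beside 20.4%. On the higher side stood Fezf2 in LayerV-VI [18-P] at 0.52, beside 9.11% of all genes higher there, Ldb2 in LayerII-IV [1-P] at 0.55, beside 6.17%, and Cux1 in LayerII-IV [4-P] at 0.64, beside 10.8%. The means were 0.21 for Fezf2, 0.31 for Ldb2, 0.18 for Cux1, 0.21 for Cux2 and -0.22 for Bcl11b. In the subset with a Y-linked transcript, which held few WT cells, Ldb2 stood at -0.30 (2 types), Cux2 at -0.37 (1 type) and Bcl11b at 0.45 (2 types). In cells with under 1000 molecules Ldb2 stood at -0.05 (3 types) and Cux2 at -0.61 (1 type).

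**Figure D4:**
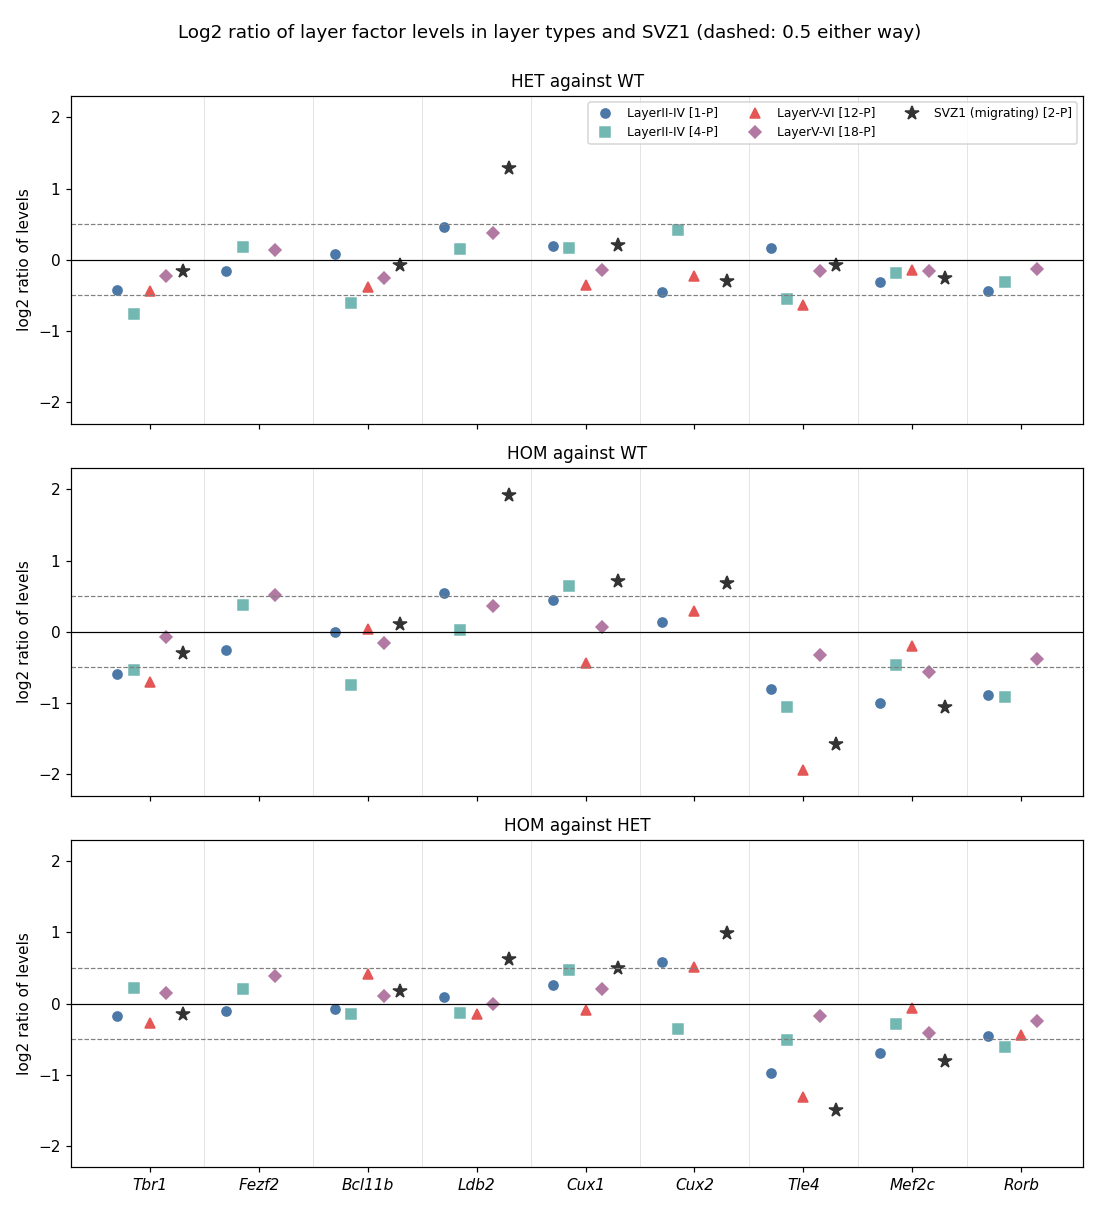
Log2 ratios of the levels of the 9 layer factors in the 4 layer types and SVZ1 (migrating) [2-P], for HET against WT, HOM against WT and HOM against HET, with 1 symbol per type, none where the summed value over both libraries was under 50, and dashed lines at 0.5 either way. Tle4, Mef2c and Rorb are below 0 in every measured layer type for HOM against WT, and Ldb2 in SVZ1 (migrating) [2-P] is the highest point of that comparison at 1.92.

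In HOM against HET, 1 of the 9 genes was lower, Tle4 at -0.74, beside 5.04% of all 8413 genes measured, and 0 were higher, beside 4.34%. Tle4 was not past 0.5 at annotation probabilities of at least 0.9 (-0.32), with layer types summed (-0.35), in cells with a Y-linked transcript (-0.22, 1 type) or at a sum of 200 (-0.17). Tle4, Mef2c and Rorb were below 0 in all 4 layer types, 3 of the 7 layer factors measured in all 4, beside 15.2% of all genes. The mean was -0.36 for Mef2c and -0.44 for Rorb, and 5 of the 9 means were below 0, beside 52.9% of all genes. In LayerII-IV [1-P] Tle4 (-0.97) and Mef2c (-0.70) were lower, beside 7.07% of all genes, and Cux2 (0.58) was higher, beside 6.03%. In LayerII-IV [4-P] Tle4 (-0.51) and Rorb (-0.60) were lower, beside 10.8%. In LayerV-VI [12-P] Tle4 (-1.31) was lower, beside 8.23%, and Cux2 (0.51) was higher, beside 9.84%. Tbr1, which was lower in both mutant libraries than in WT, differed by -0.02 between HOM and HET. The median of the 9 genes was -0.02, equal to that of all genes.

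**Figure D5:**
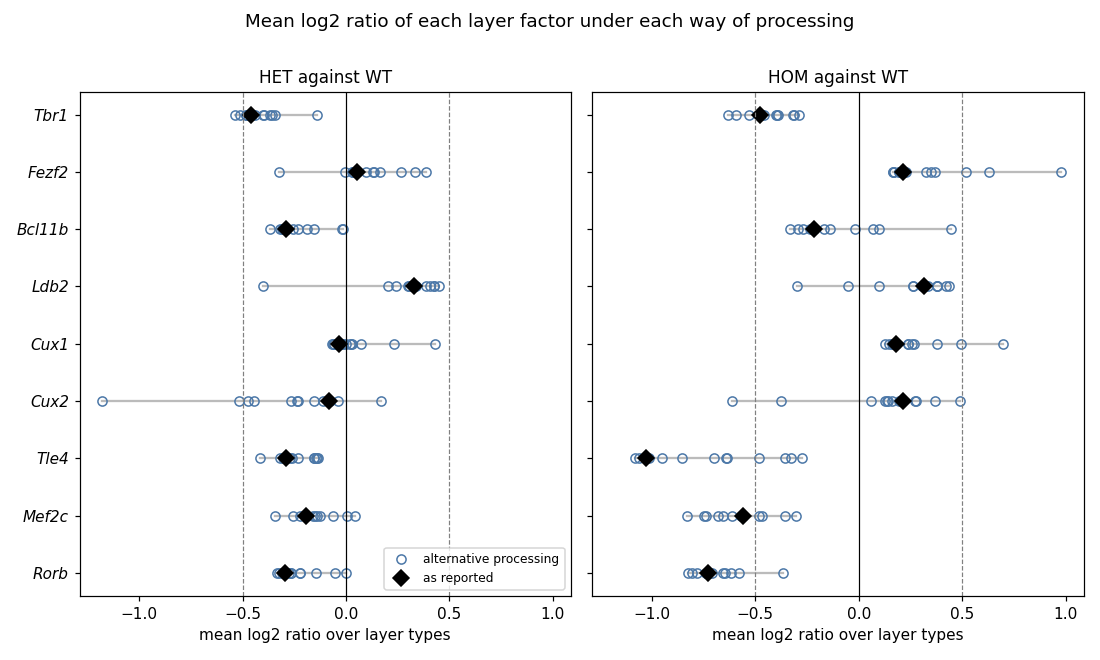
Mean log2 ratio of each of the 9 genes over the layer types under each way of computing it, for HET against WT and HOM against WT, with 1 open circle per setting, a filled diamond for the reported value and dashed lines at 0.5 either way. For HOM against WT, Tle4 ranges over -1.08 to -0.28, Mef2c over -0.83 to -0.30 and Rorb over -0.83 to -0.37, and Tbr1 stays below 0 in both comparisons with WT.

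In SVZ1 (migrating) [2-P] Ldb2 had the largest ratios to WT of the layer factors measured. Its level in SVZ1 (migrating) [2-P] was 62.5 CPM in HET, 96.4 CPM in HOM and 25.5 CPM in WT, from summed values of 45 in HET, 98 in HOM and 31 in WT. The log2 ratio was 1.29 for HET and 1.92 for HOM against WT, and the share of Ldb2 cells was 8.0% in HET (5.6 to 10.9%), 11.7% in HOM (9.3 to 14.5%) and 3.3% in WT (2.1 to 4.9%). Ldb2 was the 1 layer factor of 7 measured that was higher by at least 0.5 in HET, beside 5.66% of all genes. In HOM, Cux1 at 0.71 and Cux2 at 0.69 were higher too, making 3 of 7, beside 9.35% of all genes. In cells with under 1000 molecules, where Ldb2 and Cux2 were not measured, Cux1 in this type stood at -0.007. Tle4 at -1.57 and Mef2c at -1.06 were lower in HOM, 2 of 7, beside 18.5% of all genes, and Tle4 was found in 7.5% of HET, 2.8% of HOM and 6.4% of WT cells. Cux2 was found in 11.6% of HET, 22.3% of HOM (19.2 to 25.8%) and 13.2% of WT cells (10.8 to 15.96%). In HOM against HET, Tle4 (-1.50) and Mef2c (-0.80) were lower, beside 11.5% of all genes, and Ldb2 (0.62) and Cux2 (0.99) were higher, beside 7.45%. The SVZ1 type differed in depth by little, with 3915 molecules per cell in HET, 4077.5 in HOM and 3889 in WT, and in size by more, with 561 cells in HET, 792 in HOM and 979 in WT. The part of this, and of the levels of Eomes given above, in the SVZ1 values was not tested.

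Outside the layer types Mef2c was below 0 in HOM against WT in 14 of 14 other types compared, from -1.06 in SVZ1 (migrating) [2-P] to -0.07 in Striatal inh2 [7-P], whereas in HET against WT it was below 0 in 7 of 14. No share over all genes was computed beside such counts over other types. Mef2c also has a transcript above the median length, and ratios moved with transcript length. Tle4 was below 0 in HOM in all 5 other types in which it was measured, with -0.96 in Striatal inh1 [3-P] and -1.08 in Striatal inh2 [7-P]. In HET against WT Tle4 stood at -1.64 in Striatal inh2 [7-P] and -1.05 in Astrocytes (immature) 2 [13-P]. Ldb2 in the interneuron type Int2 [14-P] was at 1.35 in HET and 0.99 in HOM against WT. Cux1 had no common direction, being below 0 in HOM in 8 of the 13 other types in which it was measured.

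Other genes of the same layers were read beside these factors, from lists chosen by function. Of 14 further upper layer genes, 13 were measured, and 3 were lower and 2 higher by at least 0.5 in HOM against WT, with a median of -0.24, beside the 18.0% and 6.17% of all genes given above. Among them the POU homeodomain genes Pou3f1 (-0.51) and Pou3f2 (-0.66) and Dtx4 (-0.64) were lower, and Mdga1 (1.28) and Inhba (0.95, measured in 1 layer type) were higher. Of 16 deep layer and subplate genes, 14 were measured, and 5 were lower and 3 higher, with a median of 0.14. The lower ones were Etv1 (-0.95), a layer V factor, Nfia (-0.94), Nfib (-0.58), Lmo3 (-0.84) and Crym (-0.87, 1 layer type), and the higher ones were Syt6 (0.51), Otx1 (0.81) and Nxph4 (1.43), the last 2 from 1 layer type each. In HET against WT none of these 2 lists had a gene past 0.5, with medians of -0.25 for the upper and 0.02 for the deep list. The largest values in HET were -0.49 for Pou3f3 and -0.45 for Dtx4 among upper layer genes, and -0.49 for Nfia and 0.46 for Nxph4 among deep layer genes.

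All 8 genes of a list of general excitatory neuron genes were measured, with a median of 0.12 in HET and -0.03 in HOM against WT. In HOM the proneural factor Neurod1 (-0.71) was lower and Neurod2 (0.51) and Emx1 (0.71) were higher. Of 12 known partners and relatives of the layer factors, 9 were measured in HOM against WT with a median of -0.23, and the Mef2c paralog Mef2a (-0.66) was the lower one. In HET 8 were measured with a median of -0.17, and Tle1 (-0.77, 1 layer type), a paralog of Tle4, was the lower one. The median of all genes was -0.09 in HET and -0.11 in HOM. The upper layer and partner lists lay below it, and the deep layer and general excitatory neuron lists lay above it.

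Levels over the 18 larger types, each with at least 100 cells per library, were then searched for the genes most like each layer factor. The measure was the lowest Pearson correlation of the 3 libraries, which share cell type names and differ in depth, over 8907 genes. Tbr1 was most like Neurod2 (0.94) and Neurod6 (0.89), basic helix-loop-helix factors of excitatory neurons, and Dpy19l1 (0.88). Fezf2 was most like Adamts18 (0.74), Sybu (0.72) and Lmo7 (0.69). For Bcl11b these were Acvr2a (0.86), Plcxd3 (0.85) and Chd3 (0.84), and for Tle4 they were Cacna1e (0.68), a calcium channel subunit, Car11 (0.66) and Gm30382 (0.64). Ldb2 was most like Camk2b (0.75), a synaptic kinase subunit, Camkv (0.73) and Nt5dc3 (0.69). Cux1 was most like Ptpn4 (0.68), Cux2 (0.67) and Hivep3 (0.67), and Cux2 was the only layer factor among the 3 genes most like another one. Cux2 itself was most like Sh3rf3 (0.75), Sema3a (0.73), an axon guidance cue, and Aff2 (0.72). Mef2c was most like Gabra5 (0.75), a GABA receptor subunit, Syt1 (0.74) and Kctd12 (0.74), and Rorb was most like Hmgcs1 (0.77), an enzyme of cholesterol synthesis, Cdh6 (0.75) and Me1 (0.67).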

How the data were processed

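Cells of prefrontal cortex were captured in 1 library per genotype, and the 12 deposited samples are 4 runs of each. Reads were mapped by the authors to mm10 (Cell Ranger 4.0.0), and cells were filtered and annotated in Seurat 4.0 and Scanpy with cell type names transferred from an atlas. The deposited matrix is in a score unit, whole numbers corrected for depth, since its totals per cell were 825 to 1952 where molecules per cell were 499 to 17602 (equal in 617 cells). In cells with under 700 molecules, with a median of 580, the corrected total had a median of 988, while genes above 0 had a median of 428, against 422 in the cell table. In cells with 6000 molecules or more, with a median of 7486, the corrected total had a median of 1339. Genes above 0 there had a median of 891, against 3276 in the cell table, so detection was reduced in deep cells. Levels therefore got neither a count model nor an interval. Molecules per cell are counts, the mitochondrial share is a percent and the annotation probability is a fraction in the deposited cell table. The authors' own comparisons, with a log2 fold change, p-values and fractions of cells, were not used. Treatment of doublets was not given in the sources used here; doublet callers were not run.

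Values were summed per library and type and divided by the total over all genes (CPM). Genes were compared at a sum of at least 50 in 18 types with at least 100 cells in every library, and the 3 smaller types were given as values only. The 9 genes, the lists and the marker sets were chosen by name with earlier results of these data known. Named beside them were Myt1l, Xist, the 3 genes most like each factor by correlation of log2(level + 10), and up to 4 genes per list with the largest mean log2 ratio; Ptgds and further list genes past 0.5 were named after their values were seen. The number of columns of other samples was 0. Planned Poisson intervals were not computed, because the matrix does not hold raw counts. Steps were tested on simulated data. Python 3.11.15, numpy 2.4.6, scipy 1.17.1, pandas 2.3.3 and matplotlib 3.10.9 were used.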

Additional observations from a re-analysis of the deposited data

Results flagged for a closer look

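Cux1 differed in opposite directions in 2 cell types outside the cortical lineage. In HOM against WT its log2 ratio was 1.17 in Endothelial1 [17-P], where the level was 109 CPM in HOM and 48.4 CPM in WT from summed values of 44 in HOM and 9 in WT. In Ganglionic eminences [9-P] the ratio was -0.73, with 126 CPM in HOM and 210 CPM in WT. The difference between these types was not tested, since each rests on 1 library per genotype.

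Bcl11b was found in LayerI [19-P], a type too small to enter the comparisons, at 94.5 CPM in HET and 92.4 CPM in HOM, against 12.8 CPM in WT. The summed values were 12 in HET, 24 in HOM and 1 in WT, from 114 cells in HET, 237 in HOM and 71 in WT, and the difference was not tested.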

How the results depend on the processing

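The mean log2 ratios of the 9 genes were recomputed with 13 other settings, of which cells with under 1000 molecules and cells without an Xist transcript were chosen after seeing the data. In HOM against WT, Tle4, Mef2c, Rorb and Tbr1 kept their direction in all settings that gave a value (12 for Rorb, whose value was missing for cells with a Y-linked transcript, 13 for the others). Cux2 in HOM against WT turned to -0.61 in cells with under 1000 molecules. Over all values of single genes 312 stayed on their side of 0.5, 23 passed it, 13 no longer did and 1 passed it in the opposite direction. The sign itself changed in 30 of 349 values, 14 in HET against WT, 7 in HOM against WT and 9 in HOM against HET. Cux1 in HET against WT kept its sign in only 6 of 13 settings and Tbr1 in HOM against HET in 8 of 13. Rorb in HOM against HET turned to 0.28 in cells with a Y-linked transcript, where it was measured in 1 layer type.

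With layer types summed, the median of the 9 genes was -0.067 in HET against WT, -0.016 in HOM against WT and 0.082 in HOM against HET. With the length trend removed it was 0.00035 in HET and 0.10 in HOM against WT. It was -0.081 in HET without Xist cells, 0.066 in HOM at 2000 molecules or more, -0.39 in HOM under 1000, and 0.10 in HOM against HET in cells with a Y-linked transcript. Genes lower in HET numbered 1 with an equal mix of depths, 1 with layer types summed and 2 under 1000 molecules. Genes lower in HOM against WT numbered 1 at a probability of 0.9 and 1 with the length trend removed, and genes higher numbered 1 at 2000 molecules, 2 with Y-linked cells and 1 at a sum of 200. In HOM against HET, 0 were lower and 1 higher with Y-linked cells, at a probability of 0.9 and at a sum of 200, 2 were lower and 1 higher at 2000 molecules and with layer types summed (with types summed these were Mef2c and Rorb, not Tle4), and 3 were lower and 2 higher under 1000 molecules. No share over all genes under the same setting is given beside these counts, so they are not read as a result about the 9 genes. The cause of these changes was not tested, except that fewer types are measured under stricter minimums. Median-of-ratios scaling moved the median of all genes to -0.01, against -0.11 by the total, in HOM against WT.

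The median share of cells with a factor over genes and layer types was 11.1% in HET, 12.2% in HOM and 10.49% in WT. It was 20.0% in HET, 18.6% in HOM and 18.7% in WT at 2000 molecules, and 2.21% in HET, 1.81% in HOM and 2.78% in WT for values of at least 2. The median share with both genes of a pair was 2.84% in HET, 4.18% in HOM and 3.35% in WT, and 1.58% in HET, 2.53% in HOM and 1.91% in WT over all cells. Of 27 like genes, 16 were shared with a pseudocount of 1 and 16 with 50. No paired analysis was possible because each genotype has 1 library and the replicate numbers mark its sequencing runs.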

Other observations

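LayerI [19-P] neurons, which were too few to be compared, had Tbr1 at 142 CPM in HET, 142 CPM in HOM and 217 CPM in WT.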
